A study of Rattus norvegicus with 24 samples.

Results

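Among the 24613 genes of the deposited matrix, 2 were examined in each of 24 rats: ENSRNOG00000006151 and ENSRNOG00000006360. They were chosen by their measured rise in dorsal root ganglia (DRG) after spinal cord contusion, and both passed the filter on low counts, which left 15247 genes. The files do not pair the Ensembl identifiers with gene names, and the annotation table at hand carries no Ensembl identifier, so what these genes encode, where they lie and their sequences are not given here. For the same reason the tissue label was not checked against marker genes.

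The animals were female Sprague Dawley rats, about 8 to 9 weeks old on arrival, and all of them were kept in small cages that restricted movement. The 4 No SCI rats had no injury, and their tissue was taken at the 11.5 week time point. The 6 CONT SCI rats received a contusion of 25 g-cm at spinal level T2, which spares part of the descending input, and were also examined at 11.5 weeks. The 5 CONT SCI + SWIM rats had the same contusion and then swam, and the 5 CONT SCI + SWW rats had it and then walked in shallow water. Training lasted 10 weeks from 2.5 weeks after injury, and both exercised groups were collected at 13.5 weeks. The 4 TX SCI rats had a complete transection at T2, which removes descending input, and were collected at 8.5 weeks. Ganglia of both sides from T11 to L4, all below the injury, were pooled within each rat, so each library is 1 animal. Between 16086670 and 38730307 reads per library were counted on genes.

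DRG hold the cell bodies of the sensory neurons that carry signals from skin, muscle and viscera to the spinal cord, together with satellite glia, Schwann cells, vessels and immune cells. Most of these neurons are not cut by an injury of the cord, but below it they can sprout and become more excitable. In RNA from whole ganglia, a change in the number of cells of a type and a change in RNA per cell cannot be told apart.

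Levels are given as CPM, the reads of a gene per 1000000 reads of its library after TMM normalization. ENSRNOG00000006151 was scarce without injury. Its level was 0.369, 0.512, 0.347 and 0.586 CPM in No SCI replicates 1 to 4, from 11 to 17 reads each, and it lay above no more than 7.65% of tested genes. After contusion it was at 1.17 CPM in the lowest rat, 10.8 at the median and 21.6 in the highest (n = 6). The CONT SCI rats lay far apart. In 4 of them the level was between 9.40 and 21.6 CPM, and in replicates 5 and 2 it was 1.17 and 1.81 CPM. Counting error is much smaller than this distance, since 43 reads in replicate 5 have an exact 95% Poisson interval of 31.1 to 57.9 and 646 reads in replicate 4 one of 597 to 698 (intervals cover counting error only).

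TX SCI had the highest mean and median level of this gene. The levels were 49.6, 21.8, 22.3 and 11.9 CPM in TX SCI replicates 1 to 4, which in replicate 1 was above 72.8% of tested genes. In CONT SCI + SWIM the levels were 2.48, 0.863, 0.649, 0.729 and 9.91 CPM in replicates 1 to 5. In CONT SCI + SWW they were 0.908, 2.16, 3.98, 21.7 and 4.13 CPM. In each exercised group 1 rat stood above the others, SWIM replicate 5 and SWW replicate 4, and the other rats of these groups lay at no more than 4.13 CPM.

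ENSRNOG00000006360 had its 4 highest levels in the TX SCI rats. Its level was 1.24, 0.478, 1.16 and 0.345 CPM in No SCI replicates 1 to 4. In CONT SCI it was 1.35 CPM in the lowest rat, 4.65 at the median and 9.16 in the highest (n = 6). The TX SCI levels were 32.4, 12.8, 15.6 and 22.6 CPM in replicates 1 to 4, above every other sample of the series, as for 1.25% of all tested genes. In CONT SCI + SWIM the levels were 1.59, 1.36, 0.649, 0.729 and 2.51 CPM in replicates 1 to 5. In CONT SCI + SWW they were 0.768, 0.597, 1.12, 9.25 and 2.79 CPM. The exercised levels overlapped those of No SCI in both groups, and SWW replicate 4, the rat that stood out for the first gene, stood out here too.

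**Figure D1:**
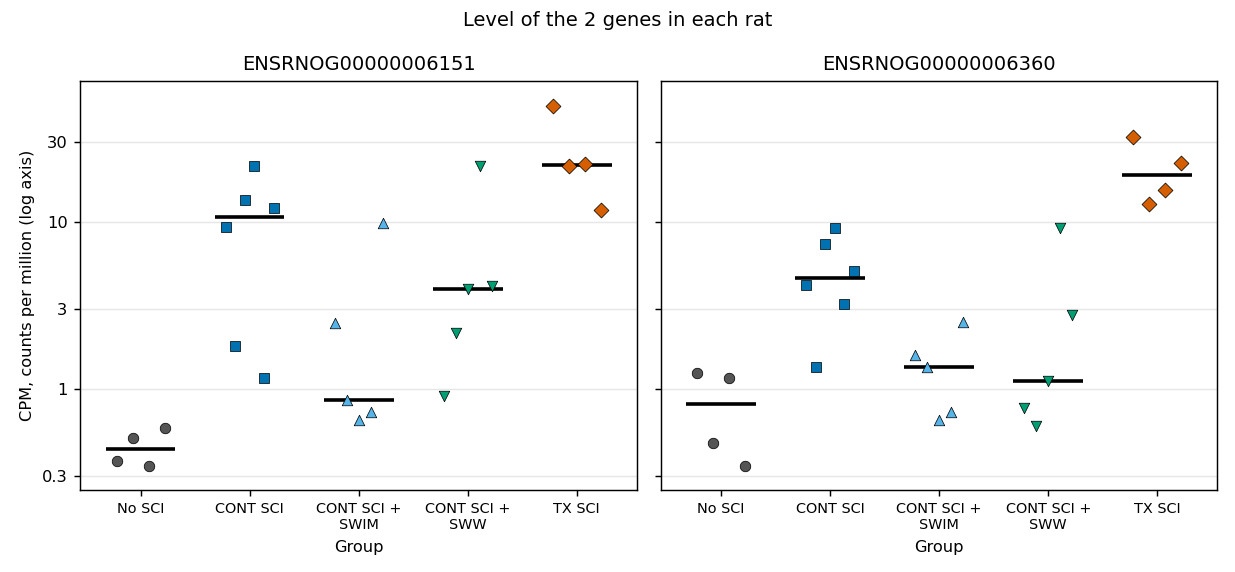
Level of each gene in each of the 24 rats, as CPM on a log axis, by group, with the group median as a bar. The 4 TX SCI rats lie at 11.9 CPM or more for ENSRNOG00000006151 and at 12.8 CPM or more for ENSRNOG00000006360, and SWW replicate 4 lies above the other exercised rats in both panels.

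By mean level, the groups of ENSRNOG00000006151 stood in the order No SCI (0.454 ± 0.115 CPM, SD, n = 4), CONT SCI + SWIM (2.93 ± 3.98, n = 5), CONT SCI + SWW (6.58 ± 8.58, n = 5), CONT SCI (9.96 ± 7.71, n = 6) and TX SCI (26.4 ± 16.2, n = 4). The ranges of SWIM and SWW, of SWW and CONT SCI, and of CONT SCI and TX SCI overlapped, so neighbours in this order above No SCI were not separated. For ENSRNOG00000006360 the order was No SCI (0.806 ± 0.460 CPM, n = 4), CONT SCI + SWIM (1.37 ± 0.753, n = 5), CONT SCI + SWW (2.90 ± 3.65, n = 5), CONT SCI (5.08 ± 2.83, n = 6) and TX SCI (20.9 ± 8.75, n = 4). Here TX SCI stood apart from its neighbour, and the other neighbours overlapped. By median, SWIM (1.36 CPM) lay above SWW (1.12 CPM) for this gene. In both orders the place of CONT SCI above No SCI follows from the choice of the genes, and nothing is read from it.

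The contrast that chose the genes is given as a description, without a test. In the fit over all 24 samples, CONT SCI exceeded No SCI by 4.45 on the log2 scale for ENSRNOG00000006151 (standard error 1.07) and by 2.62 for ENSRNOG00000006360 (standard error 0.66). These were the 2 largest positive log2 fold changes of the 15247 genes. The next gene, just outside the choice, had a log2 fold change of 1.95 (standard error 0.28). Every CONT SCI sample was above every No SCI sample for both genes, as for 7.03% of all tested genes, and nothing is read from this since the same samples chose the genes.

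TX SCI and the exercised groups were not used to choose the genes, so the comparisons among these 14 samples were tested. The fit took its spread from all 24 samples, and the comparisons were set with earlier results of these data known. Both genes were higher in TX SCI than in CONT SCI + SWIM. The log2 fold change was 3.10 for ENSRNOG00000006151 (standard error 0.79, 8.55-fold, edgeR's quasi-likelihood F test, adjusted over all genes tested by the Benjamini-Hochberg method, adjusted p = 0.0109). For ENSRNOG00000006360 it was 3.91 (standard error 0.60, 15-fold, edgeR adjusted p = 0.000211). All 4 TX SCI rats lay above all 5 swimming rats for both genes. Without SWIM replicate 5 the log2 fold change of ENSRNOG00000006151 was 4.43, and with each of the 9 samples left out in turn it ranged from 2.61 to 4.43. Of all tested genes 7.43% were called higher in TX SCI in this comparison, and 8.22% had every TX SCI sample above every SWIM sample. By log2 fold change the 2 genes ranked 13 and 6 from the top of 15247.

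Against CONT SCI + SWW both genes were again higher in TX SCI, by different margins of the test. ENSRNOG00000006360 was higher in TX SCI by 2.92 on the log2 scale (standard error 0.55, 7.56-fold, edgeR adjusted p = 0.000752), and all 4 TX SCI rats lay above all 5 SWW rats. Without SWW replicate 4 its log2 fold change was 3.97, and the range over left-out samples was 2.63 to 3.97. ENSRNOG00000006151 was higher by 2.06 (standard error 0.74, 4.16-fold, edgeR adjusted p = 0.0483), just past the threshold of 0.05. SWW replicate 4, at 21.7 CPM, lay above TX SCI replicate 4, at 11.9 CPM, so the groups overlapped. In this comparison 12.0% of all tested genes were called higher in TX SCI, and 9.20% had no overlap in that direction. The call of ENSRNOG00000006151 was lost when any 1 of 8 of the 9 samples was left out (edgeR adjusted p = 0.0520 to 0.146). It held only without SWW replicate 4, with a log2 fold change of 3.24 and an edgeR adjusted p of 0.00446. DESeq2's Wald test gave an adjusted p of 0.0833.

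**Figure D2:**
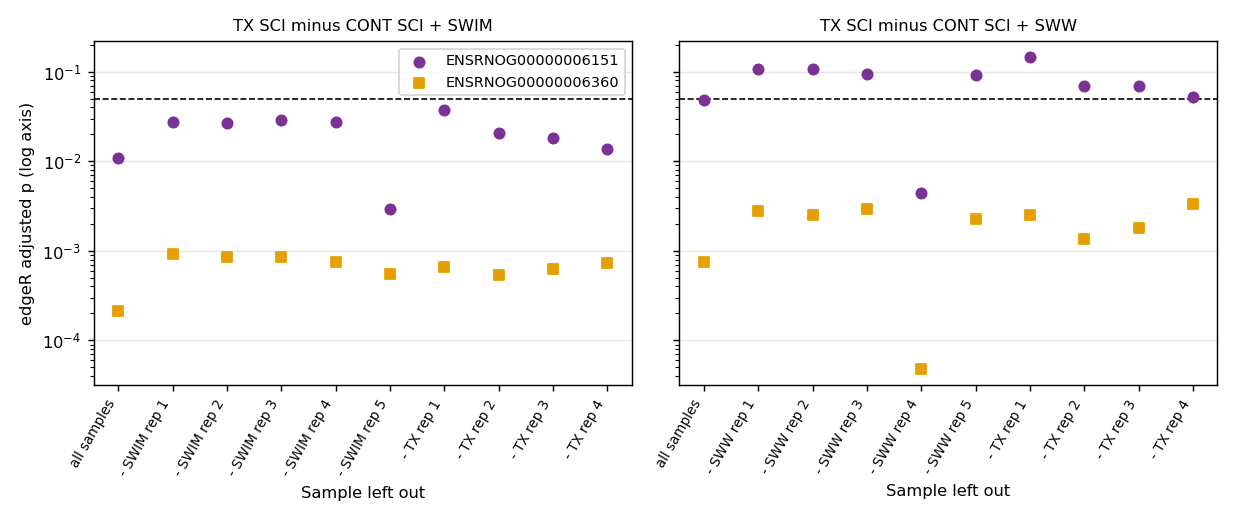
Adjusted p from edgeR (log axis) for both genes in TX SCI against CONT SCI + SWIM (left) and against CONT SCI + SWW (right), with all samples and with each sample of the compared groups left out. The dashed line is the threshold of 0.05, which ENSRNOG00000006151 crosses in the right panel in 8 of 9 fits while ENSRNOG00000006360 stays under it in all of them.

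The exercised groups were not separated from each other. CONT SCI + SWIM minus CONT SCI + SWW gave a log2 fold change of -1.04 for ENSRNOG00000006151 (95% interval -2.69 to 0.61, edgeR adjusted p = 0.506) and of -0.99 for ENSRNOG00000006360 (95% interval -2.31 to 0.33, edgeR adjusted p = 0.412). The intervals include levels several fold higher in SWW. Without SWW replicate 4 the values were 0.15 and 0.07 on the log2 scale, so that rat sets the sign. Without SWIM replicate 5 the value of ENSRNOG00000006151 was -2.37 (edgeR adjusted p = 0.147). Of all tested genes, 3.56% were called in either direction in this comparison, and neither of these 2 was.

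Differences that involve No SCI or CONT SCI share a group with the choice of the genes, and they share those samples with each other. They are therefore described without a test. Except for CONT SCI against No SCI, each such pair of groups also differed in time of collection, here and for the exercised groups below. Against No SCI, TX SCI was higher by 5.85 on the log2 scale for ENSRNOG00000006151 (standard error 1.09) and by 4.66 for ENSRNOG00000006360 (standard error 0.68). Every TX SCI sample lay above every No SCI sample for both genes, as for 16.2% of all tested genes. Against CONT SCI, TX SCI was higher by 1.40 (standard error 0.67) and 2.04 (standard error 0.48) in the same order. Without TX SCI replicate 1 the value of ENSRNOG00000006151 was 0.93, and with each sample left out in turn it ranged from 0.93 to 1.79. The TX SCI and CONT SCI rats overlapped for ENSRNOG00000006151, where 3 of 6 CONT SCI rats lay below the lowest TX SCI rat. They did not overlap for ENSRNOG00000006360, nor for 10.4% of all tested genes with TX SCI above.

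After exercise, the level of ENSRNOG00000006151 still lay above No SCI in all 10 rats. The log2 fold change against No SCI was 2.76 in CONT SCI + SWIM (standard error 1.19) and 3.80 in CONT SCI + SWW (standard error 1.12). Of all tested genes, 10.8% had every SWIM sample above every No SCI sample, and 10.1% every SWW sample. In SWIM the margin was narrow, as 0.649 CPM in replicate 3 rests on 13 reads with an exact 95% Poisson interval of 6.92 to 22.2, and No SCI reached 0.586 CPM. Without SWIM replicate 5 the SWIM difference was 1.43, and without SWW replicate 4 the SWW difference was 2.61. For ENSRNOG00000006360 only 5 of 10 exercised rats lay above the highest No SCI rat. Its log2 fold change against No SCI was 0.75 in SWIM (standard error 0.77) and 1.74 in SWW (standard error 0.71). It was 0.39 in SWIM without replicate 5 and 0.68 in SWW without replicate 4.

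Against CONT SCI, the exercised means were lower but their ranges overlapped it for both genes. For ENSRNOG00000006151 the log2 fold change was -1.69 in SWIM (standard error 0.75) and -0.65 in SWW (standard error 0.69), and 4 of 10 exercised rats lay below the lowest CONT SCI rat. For ENSRNOG00000006360 it was -1.87 in SWIM (standard error 0.58) and -0.88 in SWW (standard error 0.53), and 5 of 10 exercised rats lay below. Without SWW replicate 4 the SWW values were -1.84 and -1.94. Without SWIM replicate 5 the SWIM value of ENSRNOG00000006151 was -3.02. In the other direction, without CONT SCI replicate 4 its values were -1.30 in SWIM and -0.27 in SWW, and without SWW replicate 1 or 2 its SWW value was -0.36 or -0.42.

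**Figure D3:**
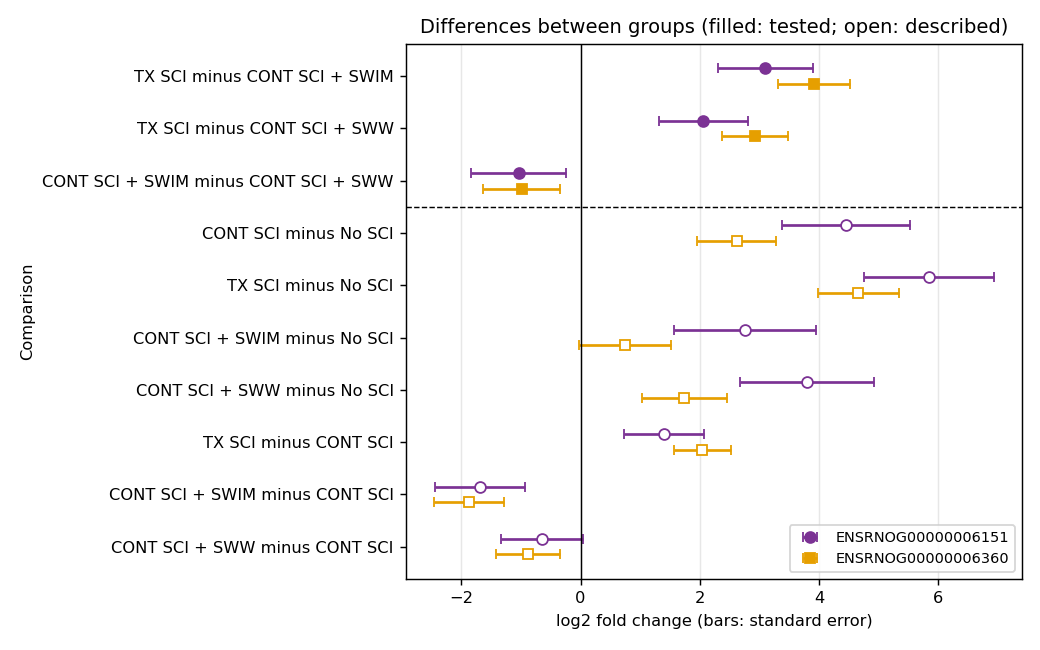
Log2 fold change of each gene in each comparison, with its standard error as a bar. Filled symbols above the dashed line are tested comparisons among groups not used for the choice, open symbols are descriptions, and the largest value is 5.85, for ENSRNOG00000006151 in TX SCI against No SCI.

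In CONT SCI and the exercised groups, rats with much RNA of one gene tended to have much of the other. In TX SCI, replicate 1 was highest for both, but replicate 4 was lowest for ENSRNOG00000006151 and the second highest for ENSRNOG00000006360. In No SCI, at 10 to 40 reads per gene and rat, the order ran the other way, as replicates 2 and 4 were the highest for ENSRNOG00000006151 and the lowest for ENSRNOG00000006360. Within CONT SCI, Pearson's r of log2 CPM was 0.832 and Spearman's rho was 0.943 (n = 6). These are descriptions without a test, because the same rats chose both genes. Replicate 4 was highest for both genes, and replicates 2 and 5 were lowest for both. Without replicates 5 and 2, the farthest from the median, r was 0.937 (n = 4), and with 5 of the 6 rats it ranged from 0.770 to 0.987.

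Over the 14 samples not used for the choice, deviations from the group means gave r = 0.824 (permutation test within groups, 100000 permutations, p = 0.00098, adjusted 0.0027) and rho = 0.824 (permutation p = 0.00135, adjusted 0.0027). The adjustment covers 4 p-values, of which the 2 within CONT SCI are not given. With each of the 14 rats left out in turn, r ranged from 0.720 to 0.863 and the permutation p was at most 0.0136. Without SWIM replicate 5 and SWW replicate 4, the farthest from the median, r was 0.633 (n = 12, permutation p = 0.0652). Without those 2 rats the relation kept its direction but missed the threshold, with fewer rats and a narrower range of ENSRNOG00000006151. With either one alone left out it stayed past the threshold. SWIM replicate 5 was the highest swimming rat for both genes, and SWW replicate 4 the highest walking rat.

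**Figure D4:**
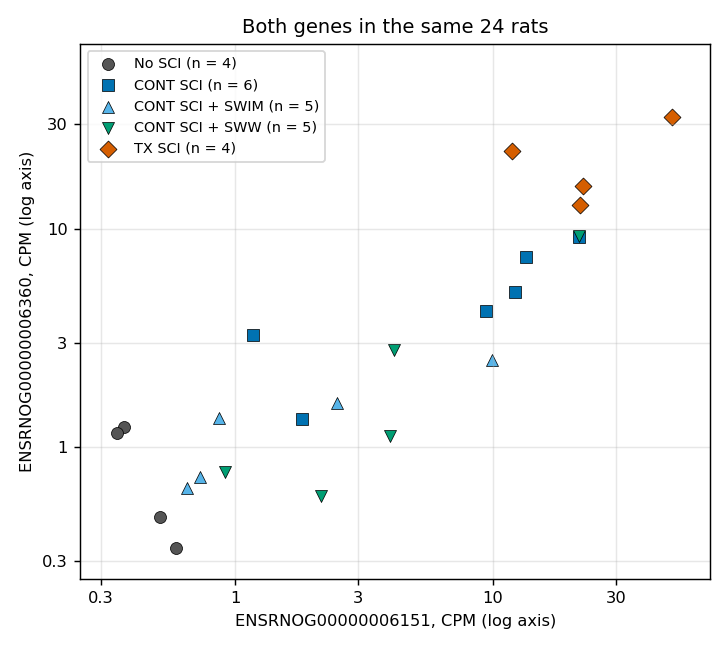
Level of ENSRNOG00000006360 against that of ENSRNOG00000006151 in each rat, both as CPM on log axes, coloured by group. CONT SCI replicate 4 and SWW replicate 4 lie almost on the same point, at 21.6 and 21.7 CPM of the first gene and 9.16 and 9.25 CPM of the second, below TX SCI on the vertical axis.

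The reads of the 2 genes did not keep a fixed proportion. The ratio of ENSRNOG00000006151 to ENSRNOG00000006360 reads, within the same library, had a median of 2.04 in CONT SCI (0.358 to 2.39) and of 2.35 in SWW (1.18 to 3.61). It had a median of 1.48 in TX SCI (0.526 to 1.71), 1.00 in SWIM (0.636 to 3.96) and 0.686 in No SCI (0.297 to 1.70). CONT SCI replicate 5 and TX SCI replicate 4 had the lowest ratios of their groups. In both rats ENSRNOG00000006151, which is the numerator, was the lowest of its group. All 5 ranges overlap. The No SCI ratios rest on 10 to 40 reads per gene and rat, and the SWIM median on rats with 13 or 22 reads of each gene. Counting error is therefore large in these ratios. The ratio says nothing of which gene is more abundant per transcript, since gene lengths were not used here.

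Each gene was the other's nearest match over the whole series. Across 24 samples, Pearson's r of log2 CPM between them was 0.884, ahead of 0.771 for the next gene to ENSRNOG00000006151 and 0.825 for the next to ENSRNOG00000006360. The median r over the other 15246 genes was 0.030 and 0.033. This is a description with no test, because differences between the groups enter it and 10 of the samples chose both genes. Over 24 samples, 17 genes had r above 0.7 with ENSRNOG00000006151 and 84 with ENSRNOG00000006360. Over the 14 samples not used for the choice, these counts were 425 and 587. Genes with r under -0.7 numbered 9 and 79 over 24 samples, and 298 and 712 over the 14 samples. There r between the 2 genes was 0.912, which ranked 1 for ENSRNOG00000006151, just ahead of the next gene at 0.908. For ENSRNOG00000006360 it ranked 10, and the nearest gene was ENSRNOG00000010268 with r = 0.957.

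**Figure D5:**
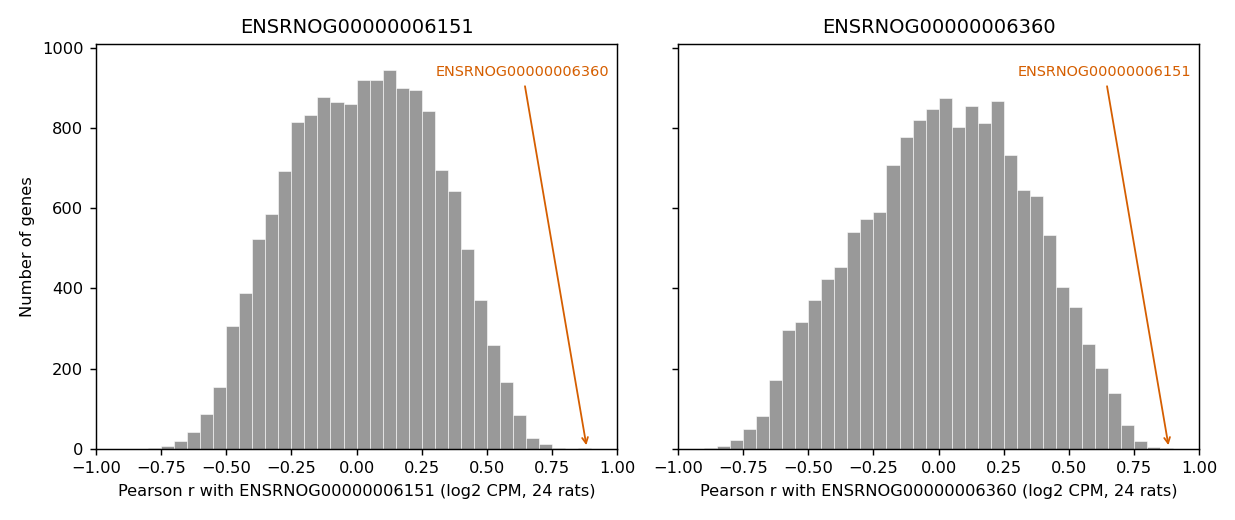
Number of genes by their Pearson's r with each of the 2 genes, over log2 CPM of all 24 rats and 15246 other genes. The arrow marks the other gene of the pair, at 0.884, to the right of all remaining genes.

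In TX SCI and the exercised groups, both genes varied between rats of the same group far more than most genes did. In a fit of the 14 samples alone, the biological coefficient of variation, edgeR's estimate of spread beyond counting error, was 81.0% for ENSRNOG00000006151 and 61.7% for ENSRNOG00000006360. The median over 14895 genes was 8.85%, and 29 and 68 genes, respectively, had a larger value. Among 1898 genes within 0.5 log2 CPM of ENSRNOG00000006151, none varied more, and for ENSRNOG00000006360 1608 of 1620 such genes varied less. Within groups, the highest rat exceeded the lowest 18.5-fold in CONT SCI, 15.3-fold in SWIM, 24-fold in SWW, 4.17-fold in TX SCI and 1.69-fold in No SCI for ENSRNOG00000006151. For ENSRNOG00000006360 these spans were 6.78-fold, 3.86-fold, 15.5-fold, 2.54-fold and 3.60-fold.

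CONT SCI replicate 4, the highest CONT SCI rat for both genes, had 2.61% of its reads on the most counted gene of the matrix, against 1.52% to 1.74% in the other CONT SCI rats. That share was 1.86% to 2.17% in TX SCI, 1.58% to 2.14% in No SCI, 1.53% to 1.92% in SWIM and 1.48% to 1.67% in SWW. SWW replicate 4 had the lowest read total of its group (20063150), and at 1.50% its share was within the range of the group. The part of these properties in the levels was not tested. Without CONT SCI replicate 4, CONT SCI exceeded No SCI by 4.04 and 2.35 on the log2 scale. The rats of a group share 1 collection time. It was 8.5 weeks in TX SCI, 11.5 in No SCI and CONT SCI and 13.5 in both exercised groups. Type of injury, training and time therefore cannot be told apart between TX SCI and the exercised groups. The same holds for injury and time between TX SCI and CONT SCI or No SCI. Training and time cannot be told apart between the exercised groups and CONT SCI, nor injury, training and time between the exercised groups and No SCI.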

How the data were processed

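RNA was extracted from pooled DRG of 24 rats, enriched for poly A and sequenced as single-end reads with a stranded kit. The authors aligned the reads to Rn6 with STAR, used FastQC 0.10.1, counted reads per Ensembl gene on the reverse strand with HTSeq 0.10.0 and deposited the counts without normalization. Mitochondrial genes were not annotated. Reads that map to several places, or to overlapping genes, could be lost, so such genes are uncertain.

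Samples were grouped by their titles. With R 4.3.3, edgeR 4.0.16 was fitted to all 24 samples in 5 groups after filterByExpr (minimum count 10, minimum total 15) and TMM, and glmQLFTest p-values were adjusted over all 15247 genes by the Benjamini-Hochberg method (threshold 0.05). The standard error of a gene was its log2 fold change over the root of its F statistic. Log2 CPM used a prior count of 1. Permutation tests used Python 3.11.15 with numpy 2.4.6 and scipy 1.17.1. The edgeR fit was tested on simulated data. Alternatives were RLE normalization, DESeq2 1.42.0, no filter, the 14 samples alone, the replicate number as a block, exact permutation tests, other scales for the correlations and each sample left out.

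The 2 genes and the comparisons were chosen with earlier results of these data known. Only the 2 genes were to be named, and the nearest match of each by identifier. Lists of marker and injury genes were not analysed here, since 0 of the identifiers matched the annotation table (47357 genes).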

Additional observations from a re-analysis of the deposited data

Results flagged for a closer look

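In each of 10 sets of values (2 genes in 5 groups), the gap of the highest and lowest sample to its neighbour was compared with the range of the group. About 1 in 20 sets would stand out by chance, or 0.5 of 10, and 3 did. For ENSRNOG00000006151, CONT SCI + SWIM replicate 5 lay at 9.91 CPM against 0.649 to 2.48 in the other 4 rats, a gap of 0.802 of the range. CONT SCI + SWW replicate 4 lay at 21.7 CPM against 0.908 to 4.13 for the same gene, a gap of 0.845. For ENSRNOG00000006360, CONT SCI + SWW replicate 4 lay at 9.25 CPM against 0.597 to 2.79, a gap of 0.747. The critical gap for 5 samples is 0.710. On the log2 CPM scale, a comparison added after seeing the data, the same gaps were 0.514, 0.527 and 0.443 of the range, and 0 of the 10 sets passed the critical gap. The chance rate given here assumes roughly normal values, which CPM of these genes are not. All 3 values are on the high side, and 2 of them come from the same rat.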

How the results depend on the processing

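The calls of both genes in TX SCI against CONT SCI + SWIM, and of ENSRNOG00000006360 against CONT SCI + SWW, held under RLE normalization, DESeq2, no filter, the 14 samples alone, the replicate block and every left-out sample. The exact permutation test gave an unadjusted p of 0.0159 for each, the smallest that 4 against 5 rats allow, which their separation fixes. The log2 fold change of ENSRNOG00000006151 in TX SCI against CONT SCI + SWW was 2.01 with DESeq2 and missed the threshold (adjusted p = 0.0833). It ranged from 1.58 to 3.24 with each sample left out (edgeR adjusted p = 0.00446 to 0.146), and its exact permutation test gave an unadjusted p of 0.0317. For swimming against shallow water walking, leaving out 1 sample moved the log2 fold change from -2.37 to 0.147 for ENSRNOG00000006151 and from -1.36 to 0.069 for ENSRNOG00000006360, with the sign reversed (0.147 and 0.069) only without SWW replicate 4. The log2 fold changes of ENSRNOG00000006360 in CONT SCI + SWW ranged from 0.68 to 2.02 against No SCI and from -1.94 to -0.60 against CONT SCI. The correlation within CONT SCI ranged from 0.770 to 0.987, and that over the 14 other samples fell to 0.633 without the 2 rats farthest from the median.

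Over all tested genes, 2193 differed between TX SCI and CONT SCI + SWIM (1333 to 1997 with 1 sample left out, the lowest without TX SCI replicate 4) and 3359 between TX SCI and CONT SCI + SWW (2026 to 3654, the lowest again without TX SCI replicate 4). Between the exercised groups 543 differed (167 to 828), or 863 with DESeq2, and the count was 321, 167, 236, 223 and 828 without SWIM replicate 2, SWIM replicate 3 and SWW replicates 2, 4 and 5. The cause of these shifts was not tested. Same-numbered rats are different animals and their deviations from the group means correlated by -0.113 to 0.129 in the 3 tested comparisons. With the replicate block, TX SCI exceeded CONT SCI + SWIM by 3.49 and 4.02 and CONT SCI + SWW by 2.59 and 3.18 on the log2 scale for ENSRNOG00000006151 and ENSRNOG00000006360, and no call changed. Levels below 1 CPM rest on 10 to 26 reads, which limits what can be separated there.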
